A study of Mus musculus with 24 samples.

Results

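The Hox genes are homeobox genes that lie in 4 clusters, Hoxa, Hoxb, Hoxc and Hoxd, and encode transcription factors of position along the body. They were taken as all rows of the expression tables whose symbol is Hoxa, Hoxb, Hoxc or Hoxd followed by a number, which gave 39 genes of 24825 rows (11 Hoxa, 10 Hoxb, 9 Hoxc and 9 Hoxd genes). Their levels were read in cultured cells from the inguinal fat depot of mice.

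Hox proteins bind DNA through their homeodomain, often together with TALE homeodomain cofactors of the Pbx, Meis and Pknox families. Low-numbered genes of a cluster are classically used towards the head and high-numbered genes towards the tail and the tips of the limbs, and genes with the same number in different clusters are paralogs. Fat and connective tissue cells of the adult are known to keep a Hox pattern that reflects where in the body they came from, and Hoxc10 is known as a gene of subcutaneous inguinal fat.

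RNA-seq libraries were made from ingSVF cells, which are cells of the stromal vascular fraction of inguinal white fat and include adipocyte precursors. The mice carried Nfia flox/flox alleles, and every group was immortalized with SV40 large T antigen, so the controls carry the floxed alleles and the viral antigen too. There were 4 cell types: ctrl cells received an empty retroviral vector, Cre cells a vector for Cre recombinase, Cre + NFIA cells Cre and the whole NFIA protein with a 3xFLAG tag, and Cre + NFIA Δpro#3 cells Cre and a 3xFLAG-tagged NFIA without its last proline-rich segment. NFIA belongs to the nuclear factor I family of DNA-binding proteins, and the design compared cells in which Nfia was targeted with cells given back the full-length or the shortened protein. Each cell type was taken at day 0, before induction, and at day 7 of differentiation into thermogenic adipocytes with isobutylmethylxanthine, indomethacin, dexamethasone, insulin, T3 and rosiglitazone, with 3 libraries in each of the 8 groups. The age and sex of the mice were not given in the sources used here, and nothing says that replicates came from separate animals or cultures, so the tests measure the spread between these libraries, which may be technical.

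Levels are FPKM, that is reads scaled to gene length in kilobases and to a library of 1000000 reads, and can be compared between genes because they are per length. Libraries held 7732829 to 14622189 reads, and those of Cre at day 0 were among the shallowest, with at most 10161380. The gene-level value of Nfia did not check the Cre label, as it counts the whole gene and not only the floxed exon. Cre minus ctrl was -0.06 on the log2 scale at day 0 (adjusted p = 0.687) and 0.07 at day 7 (adjusted p = 0.426). Reads of the floxed exon alone were not available, so why the value did not fall was not tested. The paper reports a nearly complete loss of Nfia mRNA by RT-qPCR and of NFIA protein in Cre-expressing cells. Summed over 6 adipocyte markers (Adipoq, Fabp4, Plin1, Cidec, Lpl and Cd36), FPKM was 64.1 to 105 in the libraries of day 0 and 822 to 25150 at day 7. The summed level of 8 adipose precursor markers (Pdgfra, Pdgfrb, Ly6a, Cd34, Dpp4, Pi16, Dlk1 and Thy1) was 2027 to 2370 at day 0 and 502 to 1517 at day 7. Most of this sum was Ly6a, at 1801 FPKM in ctrl at day 0 and 386 at day 7. In ctrl, Thy1 rose from 20.9 to 45.8 FPKM and Dlk1 from 2.44 to 3.91. Pdgfra, Pdgfrb, Ly6a, Cd34 and Pi16 fell there, and Dpp4 was near 0 on both days. Markers of other cells were low, at 1.55 to 10.2 summed FPKM for 5 endothelial genes, 5.04 to 19.0 for 5 leukocyte genes, 1.06 to 8.78 for 4 mesothelial genes and 0.254 to 1.31 for 5 skeletal muscle genes, with Adgre1 and Myod1 at 0 in all 24 libraries.

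Of the 39 Hox genes, 13 were under 1 FPKM in every library. These were Hoxa2, Hoxa11, Hoxa13, Hoxb1 and the 9 Hoxd genes, or 33.3% of the Hox genes against 47.2% of all rows. Hoxd3, Hoxd9, Hoxd10, Hoxd12 and Hoxd13 were listed at 0 in all 24 libraries, and Hoxa11, Hoxb1, Hoxd1 and Hoxd11 never had more than 3 reads in a library. Expression of these 9 genes was not detectable at this depth, since a count of 0 allows up to 3 reads, which for Hoxd13 is 0.0826 to 0.156 FPKM depending on the library. This limit covers counting error only. The other 4 were seen at a trace: Hoxa2, the second gene of its cluster and a gene of the hindbrain, reached 0.494 FPKM with 10 reads, and its exons overlap those of Hoxa3 on the same strand in the annotation, so its reads are uncertain. Hoxa13, the terminal gene of its cluster and a gene of the distal limb, reached 0.491 FPKM with 8 reads in Cre + NFIA at day 7. Hoxd8 reached 0.256 FPKM with 7 reads, and Hoxd4, whose exons overlap Hoxd3, reached 0.175 FPKM with 6 reads.

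The Hoxd cluster, on chromosome 2 from 74506367 to 74603200 (mm9), thus held almost no reads. It gave 73 reads in 24 libraries together, with at most 9 in any library, and its summed level was 0 to 0.287 FPKM. Genes listed as flanking it were transcribed at unlike levels. Mtx2, which encodes a mitochondrial outer membrane protein, ranged from 19.3 to 52.4 FPKM, and Atp5g3, a subunit of the mitochondrial ATP synthase, from 171 to 1022 FPKM. Lnpk was lower, at 2.49 to 4.87 FPKM, and Evx2, the homeobox gene at the end of the cluster, was listed at 0 throughout.

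The other 3 clusters were transcribed. The Hoxc cluster (chromosome 15, 102751534 to 102867274) had the highest summed level in every group, at 88.7 to 167 FPKM over the libraries. Hoxb (chromosome 11, 96055630 to 96229570) ranged from 43.1 to 88.8 FPKM and Hoxa (chromosome 6) from 30.2 to 49.2 FPKM. In ctrl at day 7 Hoxa stood above Hoxb, at 48.4, 48.6 and 49.2 FPKM against 47.3, 47.15 and 43.1, without overlap. Over all libraries the reads were 69329 for Hoxc, 40871 for Hoxb and 26426 for Hoxa. All 9 Hoxc genes, 9 of 10 Hoxb genes and 8 of 11 Hoxa genes passed the filter of 1 FPKM in at least 3 libraries, so 26 Hox genes were tested (66.7% against 50.9% of all rows), and 20 stood at 1 FPKM or more in all 24 libraries. Just above the limit of 1 FPKM was Hoxa7, a gene of the thoracic level, which ranged from 0.658 to 1.82 FPKM and reached the limit in 18 libraries.

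**Figure D1:**
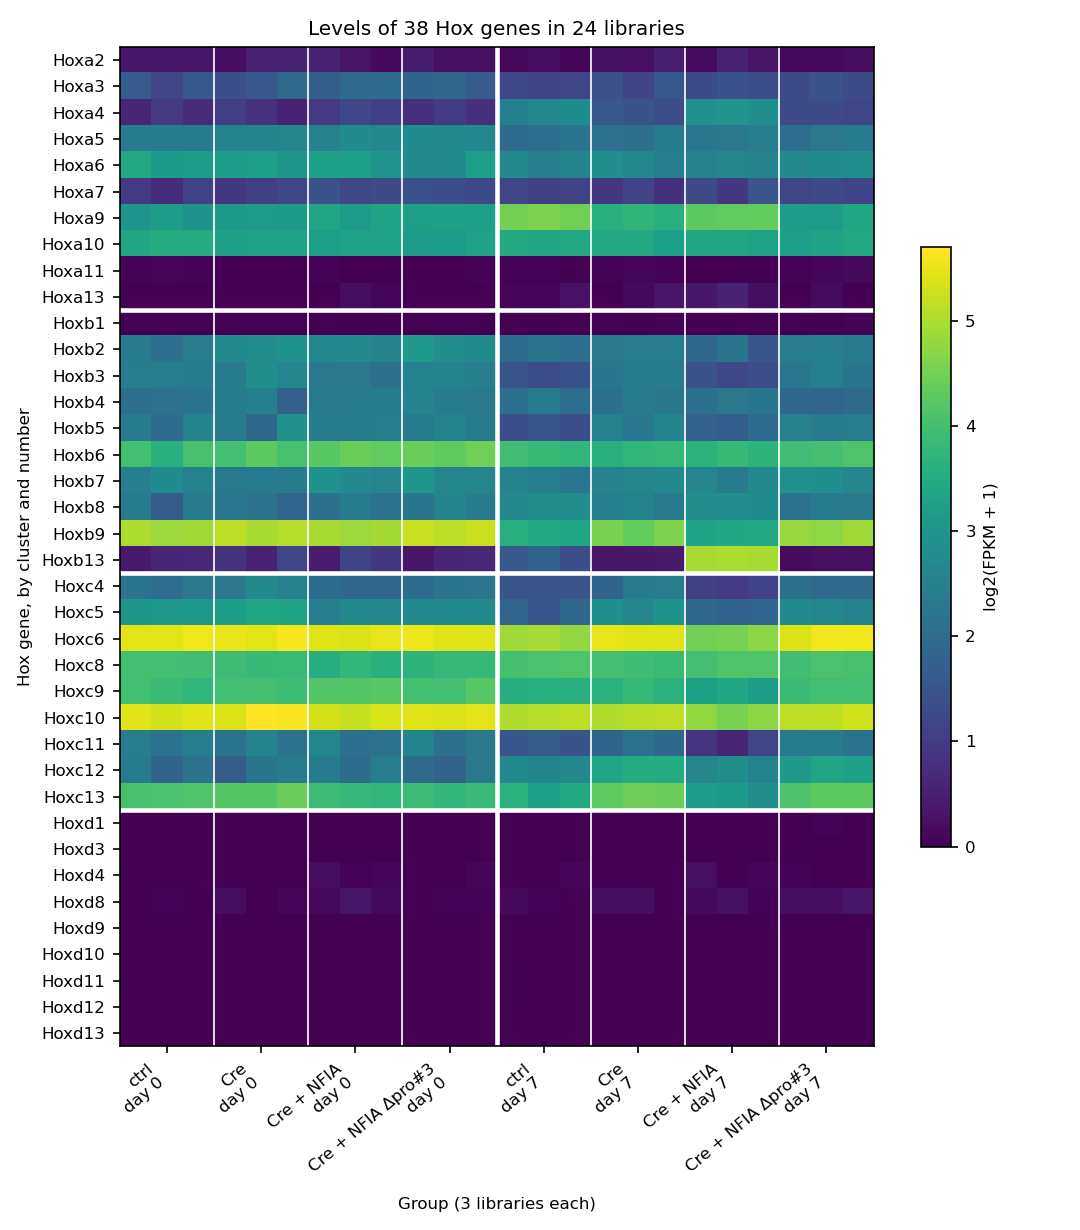
Levels of 38 Hox genes as log2(FPKM + 1) in 24 libraries, with genes in rows by cluster and number and libraries in columns by group, day 0 on the left and day 7 on the right. Hoxc6 and Hoxc10 are the brightest rows, the 9 Hoxd rows stay dark, and Hoxb13 is bright only in the 3 Cre + NFIA libraries of day 7.

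In ctrl cells at day 0, Hoxc6 stood highest at 44.5 ± 1.98 FPKM (SD, n = 3). Hoxc10 followed at 41.5 ± 1.76 FPKM and Hoxb9, a gene of the trunk and posterior axis, at 29.1 ± 1.58 FPKM. The libraries of each of these 3 genes did not overlap those of the next gene in the order. The order of Hoxc6 and Hoxc10 rests on the gene lengths behind the FPKM values: Hoxc6 was counted as 1592 bases, against 2502 exon bases in GENCODE vM1, and over all libraries it had 17184 reads against 19291 for Hoxc10, whose length was about the same in both (1913 and 1909 bases). Hoxc13, the last gene of its cluster and known from hair and nail, followed at 15.9 ± 0.538 FPKM and was also clear of the next gene. Hoxc8, Hoxb6 and Hoxc9, at 14.7 ± 0.196, 13.8 ± 2.25 and 13.7 ± 1.14 FPKM, could not be put in order, as neighbours overlapped. Hoxa10, Hoxa6, Hoxa9 and Hoxc5 stood at 10.2, 8.47, 7.24 and 7.24 FPKM, again with overlap from one to the next. Below them, Hoxb7 stood at 4.99 ± 0.783 FPKM, and 9 genes from Hoxb3 to Hoxb4 lay between 3.37 and 4.24 FPKM. Hoxa3, Hoxa7, Hoxa4 and Hoxb13 were at 1.78 FPKM or lower. The 7 genes at the head of the order were thus all of the Hoxb and Hoxc clusters, and the Hoxa genes numbered 11 and 13 were near 0. No other depot was measured, so the pattern is given for these cells alone.

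Hoxc6 and Hoxc10 alone made up 34.3% ± 0.683 (SD, n = 3) of the summed Hox FPKM in ctrl cells at day 0, and the Hoxc cluster as a whole 59.3% ± 0.695. At day 7 the Hoxc share was 53.6% ± 0.679 in ctrl, 60.3% ± 0.509 in Cre, 42.3% ± 0.48 in Cre + NFIA and 59.6% ± 0.778 in Cre + NFIA Δpro#3. The share was thus lowest, without overlap of libraries, in Cre + NFIA cells at day 7. Hoxb13 entered the sum in that group, at 30.5 ± 0.462 FPKM. The summed Hoxc level was also lowest in that group, at 89.5 ± 1.10 FPKM against 109 ± 0.678 in ctrl at day 7.

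Before induction the Hox genes differed little between Cre and ctrl cells. Between Cre and ctrl at day 0 only 1 of the 26 genes was called at an adjusted p under 0.05, against 3.33% of all 12640 genes tested (1.63% higher and 1.70% lower). This was Hoxb2, a gene of the hindbrain, which was higher in Cre at 5.56, 6.03 and 6.61 FPKM against 4.19, 3.25 and 4.22 in ctrl (log2 difference 0.54, SE 0.11, adjusted p = 0.0288). The groups did not overlap, and over all genes 11.0% were higher in Cre without overlap. The call of Hoxb2 was lost in 6 of 14 alternatives, with adjusted p from 0.0297 to 0.174 over all of them.

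With full-length NFIA added, the Hox genes called at day 0 lay mostly in the Hoxc cluster and differed by small amounts. In Cre + NFIA against Cre, 7 of 26 Hox genes were called (1 higher and 6 lower), against 27.6% of all genes (14.7% higher and 12.9% lower). Under median-of-ratios size factors or quantile normalization the split was 0 higher and 6 lower. Hoxc5 was 4.47, 5.47 and 5.23 FPKM in Cre + NFIA and 8.18, 9.19 and 9.08 FPKM in Cre (log2 difference -0.70, SE 0.07, adjusted p = 5.44e-05). Hoxc4 (-0.58), Hoxc13 (-0.44), Hoxb3 (-0.41), Hoxc10 (-0.28) and Hoxc8 (-0.21) were lower as well, and none of these groups overlapped. Over all genes 19.2% were lower without overlap. Hoxb7 was higher by 0.41 (adjusted p = 0.0434), a call that 11 of 14 alternatives lost. In GENCODE vM1, Hoxb7 and Hoxb8 share 1069 exon bases on the same strand. Hoxb7 was counted as 1269 bases against 4084 exon bases there, and the annotation used for counting is not known. Whether reads were lost to shared bases is thus not known, so the levels of both genes are uncertain.

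With the shortened protein, the lower Hox genes at day 0 were both of the Hoxc cluster. In Cre + NFIA Δpro#3 against Cre, 2 of 26 were called, Hoxc5 (-0.55, SE 0.07, adjusted p = 0.000641) and Hoxc13 (-0.41, SE 0.07, adjusted p = 0.00325), both lower, against 18.3% of all genes (9.26% higher and 9.02% lower). Under quantile normalization 1 was higher and 2 were lower. Between the cells with the shortened and the full-length protein, only Hoxb9 was called, against 10.1% of all genes (4.50% higher and 5.59% lower), at 36.5, 33.95 and 36.8 FPKM against 29.96, 27.6 and 29.6 FPKM (log2 difference 0.29, SE 0.06, adjusted p = 0.008). Against ctrl, a comparison added after the values were seen, Cre + NFIA had 10 Hox genes called (6 higher and 4 lower) against 33.1% of all genes (18.8% higher and 14.3% lower). Hoxb6 (0.46, SE 0.11, adjusted p = 0.00997), Hoxa7 (0.38, SE 0.12, adjusted p = 0.0264) and Hoxb2 (0.35, SE 0.11, adjusted p = 0.0298) were higher, and Hoxc5 (-0.45, SE 0.07, adjusted p = 0.000977), Hoxc8 (-0.33, SE 0.06, adjusted p = 0.00231) and Hoxc13 (-0.25, SE 0.07, adjusted p = 0.0195) were lower. The calls of Hoxa7, Hoxb2 and Hoxc13 were lost in 5, 5 and 3 of 14 alternatives. All log2 differences at day 0 among the 26 genes tested were under 3-fold, and comparisons that name Cre share the 3 Cre libraries.

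Between day 0 and day 7, Hox genes were called in every cell type, in ctrl, Cre and Cre + NFIA Δpro#3 at a share near or below that of all genes. In ctrl cells 17 of 26 genes were called between day 7 and day 0, 5 higher and 12 lower, against 71.0% of all genes (32.9% higher and 38.1% lower). The median log2 change was -0.23 over the 26 Hox genes and -0.05 over all genes. Cre + NFIA cells had 21 calls, 6 higher and 15 lower, against 70.1% of all genes (31.8% higher and 38.3% lower), with a median of -0.54 against -0.05. Cre cells had 14, 4 higher and 10 lower, against 51.7% of all genes (30.0% higher and 21.6% lower), with a median of -0.23 against 0.06. Cre + NFIA Δpro#3 cells had 11, 4 higher and 7 lower, against 41.5% of all genes (24.5% higher and 17.0% lower), with a median of -0.13 against 0.05. Under quantile normalization the splits were 3 higher and 15 lower in Cre and 3 higher and 11 lower in Cre + NFIA Δpro#3. Bulk RNA cannot tell fewer cells of a type from less RNA per cell, here and in all comparisons that follow.

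On the log2(FPKM + 1) scale, the Hox gene that fell most with differentiation in ctrl cells was Hoxb9. Its FPKM was 30.9, 27.9 and 28.6 in ctrl, 34.2, 30.6 and 32.5 in Cre, 29.96, 27.6 and 29.6 in Cre + NFIA and 36.5, 33.95 and 36.8 in Cre + NFIA Δpro#3 at day 0. By day 7 the values were 10.98, 10.1 and 9.48 in ctrl, 22.6, 19.4 and 23.4 in Cre, 9.13, 9.78 and 10.1 in Cre + NFIA and 27.1, 25.7 and 28.7 in Cre + NFIA Δpro#3. The ctrl and Cre + NFIA libraries of day 7 thus stood far below all others, and their ranges overlapped each other. The change in ctrl was -1.43 (SE 0.07, adjusted p = 1.6e-13) and that in Cre + NFIA -1.50 (SE 0.07, adjusted p = 6.92e-14). In Cre it was -0.56 (SE 0.07, adjusted p = 1.19e-06) and in Cre + NFIA Δpro#3 -0.38 (SE 0.07, adjusted p = 0.000157). In ctrl Hoxc5 also fell (-1.27, SE 0.10, adjusted p = 2.75e-10), as did Hoxb3, a gene of the hindbrain and neck (-0.96, SE 0.10, adjusted p = 2.86e-08). The ratio of mean FPKM in ctrl, day 7 to day 0, was 0.338 for Hoxc5 and 0.350 for Hoxb9. The order of these 2 genes thus depends on the added 1 FPKM, which shrinks the log2 change of the lower gene more. Hoxc5 shares 449 exon bases and Hoxc10 166 with the overlapping gene Gm20398 in the annotation.

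In Cre + NFIA cells Hoxc11 fell as well, from 5.13, 3.24 and 3.36 FPKM to 0.814, 0.526 and 1.27 FPKM (-1.39, SE 0.16, adjusted p = 1.25e-07). It rested on 6 to 17 reads per library at day 7, and the added 1 FPKM makes its log2 change smaller than that of the means, whose ratio was 0.223 for Hoxc11 and 0.333 for Hoxb9. Hoxc9, known like Hoxc10 from inguinal fat, fell from 16.8, 17.1 and 17.9 to 8.40, 9.47 and 7.997 FPKM in the same cells (-0.93, SE 0.07, adjusted p = 3.91e-10) and in ctrl from 14.8, 13.8 and 12.5 to 10.7, 11.1 and 10.96 FPKM (-0.30, SE 0.07, adjusted p = 0.00124). In Cre, Hoxa6 (-0.52, SE 0.13, adjusted p = 0.00236) and Hoxc10 (-0.51, SE 0.07, adjusted p = 5.4e-06) fell, and in Cre + NFIA Δpro#3, Hoxb4 (-0.48, SE 0.13, adjusted p = 0.00542), Hoxa5 (-0.47, SE 0.09, adjusted p = 0.000332) and Hoxb2 (-0.47, SE 0.13, adjusted p = 0.00561) fell.

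Against this, 2 Hoxa genes, Hoxa4 and Hoxa9, rose with differentiation in ctrl, Cre and Cre + NFIA cells. Hoxa4, the fourth gene of its cluster, was 0.521, 0.942 and 0.598 FPKM in ctrl, 1.09, 0.759 and 0.490 in Cre, 0.918, 1.31 and 1.09 in Cre + NFIA and 0.733, 1.01 and 0.715 in Cre + NFIA Δpro#3 at day 0. By day 7 the values were 4.51, 5.16 and 5.82 in ctrl, 2.01, 1.78 and 1.59 in Cre, 6.41, 6.91 and 6.16 in Cre + NFIA and 1.51, 1.51 and 1.28 in Cre + NFIA Δpro#3. Hoxa4 was high only in the ctrl and Cre + NFIA libraries of day 7, none of which overlapped the rest. Its change with time was 1.87 (SE 0.12, adjusted p = 1.77e-11) in ctrl, 1.83 (SE 0.12, adjusted p = 2.4e-11) in Cre + NFIA, 0.66 (SE 0.12, adjusted p = 0.000131) in Cre and 0.42 (SE 0.12, adjusted p = 0.00897) in Cre + NFIA Δpro#3, the last of which lost its call in 1 of 14 alternatives. Hoxa4 reached 1 FPKM in 16 libraries, among them all 12 of day 7.

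Hoxa9, a gene of the posterior trunk, stood at a higher level. At day 0 all 12 libraries lay between 6.70 and 9.18 FPKM. At day 7 it was 21.7, 23.2 and 21.4 FPKM in ctrl, 11.4, 12.3 and 10.99 in Cre, 18.4, 19.1 and 19.6 in Cre + NFIA and 8.04, 7.78 and 9.54 in Cre + NFIA Δpro#3. The 4 cell types did not overlap at day 7, with ctrl highest and Cre + NFIA Δpro#3 lowest. The change with time was 1.49 (SE 0.07, adjusted p = 1.6e-13) in ctrl, 1.05 (SE 0.07, adjusted p = 4.22e-11) in Cre + NFIA and 0.53 (SE 0.07, adjusted p = 4.01e-06) in Cre, and in Cre + NFIA Δpro#3 it was -0.01 (95% interval -0.16 to 0.13) and not called. In the annotation 198 exon bases of Hoxa9 are shared with other genes on its strand, among them Mir196b, so its reads are in part uncertain.

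Hoxc12 rose with differentiation in all 4 cell types. It was 5.31, 4.97 and 5.21 FPKM in ctrl, 9.40, 10.5 and 10.4 in Cre, 5.03, 6.09 and 4.71 in Cre + NFIA and 7.42, 9.22 and 8.60 in Cre + NFIA Δpro#3 at day 7, against 2.22 to 4.32 FPKM in the libraries of day 0. Here Cre and Cre + NFIA Δpro#3 were the higher groups. The change was 0.51 (SE 0.16, adjusted p = 0.00715) in ctrl, 1.39 (SE 0.16, adjusted p = 2.94e-07) in Cre, 0.39 (SE 0.16, adjusted p = 0.036) in Cre + NFIA and 1.21 (SE 0.16, adjusted p = 3.13e-06) in Cre + NFIA Δpro#3. Hoxc12 is the shortest of the genes tested, at 843 bases in the tables, and rested on 44 to 97 reads per library at day 7. Its neighbour Hoxc13 rose in Cre + NFIA Δpro#3 (0.37, SE 0.10, adjusted p = 0.00552) and fell in ctrl (-0.63, SE 0.10, adjusted p = 1.11e-05) and Cre + NFIA (-0.80, SE 0.10, adjusted p = 4.25e-07), while in Cre it was 0.13 (95% interval -0.07 to 0.32) and not called.

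Other abundant members changed in some of the cell types or in none. Hoxa10, a gene of the lumbar and sacral level, was not called with time in any cell type, and its 24 libraries lay between 7.82 and 10.6 FPKM. Hoxc8 was 14.7 ± 0.196 FPKM in ctrl at day 0 and 15.9 ± 0.752 FPKM at day 7 (not called), and rose in Cre + NFIA by 0.44 (SE 0.06, adjusted p = 2.24e-06) and in Cre + NFIA Δpro#3 by 0.26 (SE 0.06, adjusted p = 0.00225). Hoxa6, a paralog of Hoxc6 and Hoxb6, fell in ctrl from 8.47 ± 1.17 to 4.88 ± 0.564 FPKM and was not called in Cre + NFIA Δpro#3 (-0.12, 95% interval -0.38 to 0.14). Hoxb7 was not called with time in any cell type and lay between 3.69 and 7.14 FPKM.

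**Figure D2:**
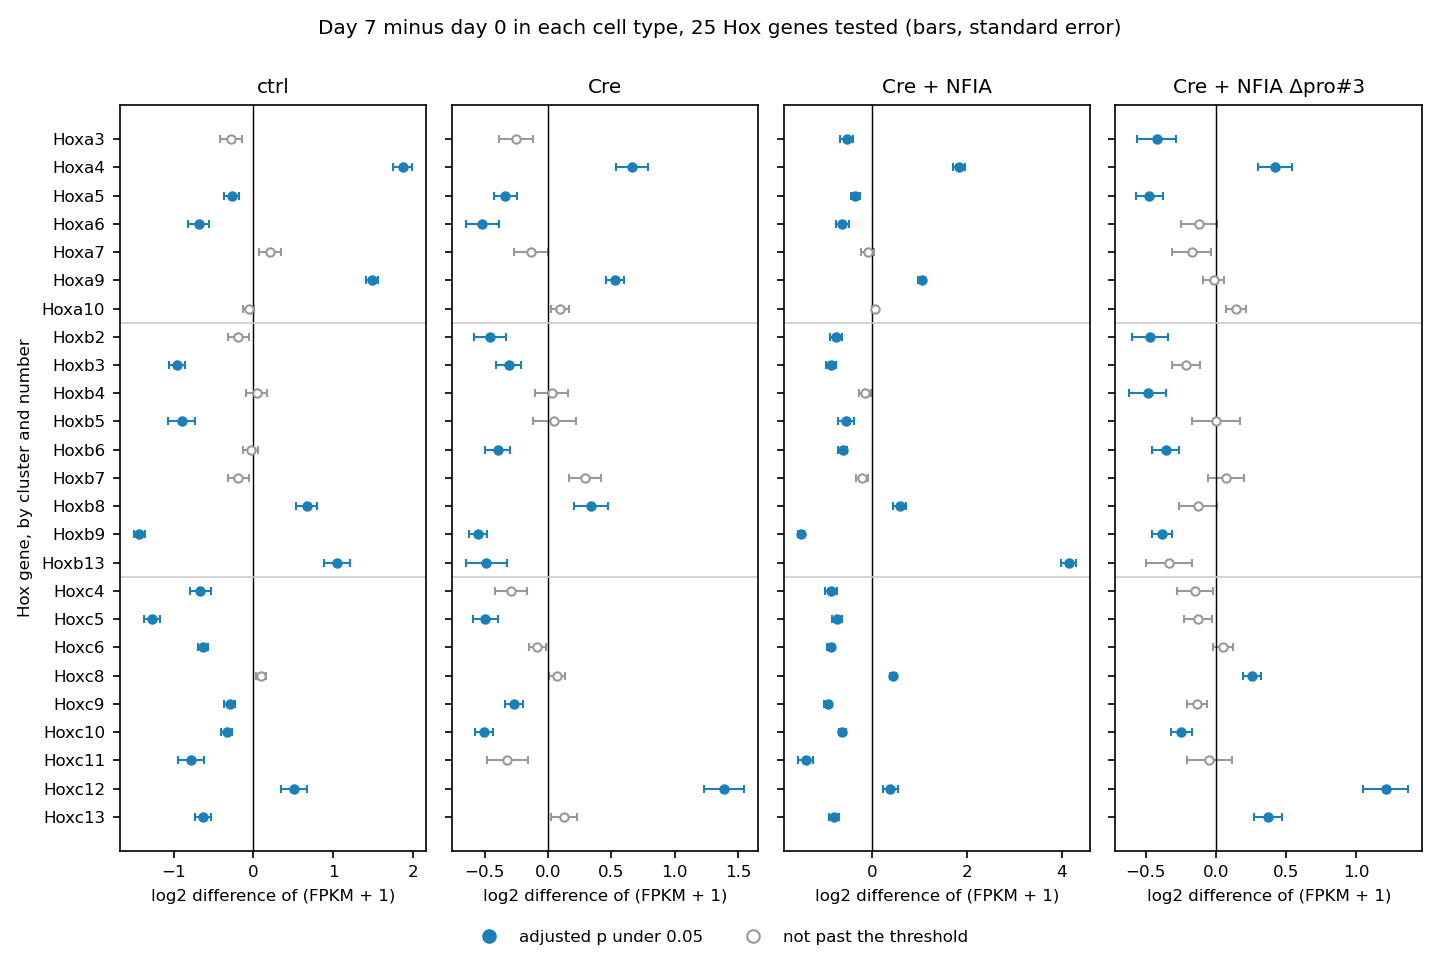
Log2 change of FPKM + 1 from day 0 to day 7 for 25 of the Hox genes tested, by cluster and number, in each of the 4 cell types (points, with standard error bars and a horizontal scale of its own in each panel). Filled points passed an adjusted p under 0.05, 17 in ctrl, 14 in Cre, 21 in Cre + NFIA and 11 in Cre + NFIA Δpro#3.

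At day 7 Cre and ctrl cells differed in Hox genes of all 3 transcribed clusters. In Cre against ctrl 13 of 26 were called, 9 higher and 4 lower, against 58.8% of all genes (36.1% higher and 22.7% lower). Median-of-ratios size factors moved the median of all genes in this comparison from 0.09 to -0.01 and gave 8 higher and 6 lower, which was also the split under quantile normalization. The genes that were higher in Cre lay in the Hoxb and Hoxc clusters: Hoxb3, Hoxb5, Hoxb9, Hoxc4, Hoxc5, Hoxc6, Hoxc11, Hoxc12 and Hoxc13. The genes that were lower were Hoxa4, Hoxa9, Hoxb8 and Hoxb13.

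Among the higher genes, the differences of Hoxb5, Hoxb9 and Hoxc5 were the largest. Hoxb5, a gene of the neck and thorax level, was 4.71, 3.69 and 4.92 FPKM in Cre and 1.55, 1.86 and 1.57 FPKM in ctrl (log2 difference 1.03, SE 0.11, adjusted p = 9.47e-06). Hoxb9 was higher by 1.02 (SE 0.08, adjusted p = 1.24e-06) and Hoxc5 by 1.02 (SE 0.12, adjusted p = 1.75e-05), at 6.23, 5.04 and 6.70 FPKM against 2.62, 1.88 and 2.83. Hoxc6, the most abundant member, was 44.99, 41.9 and 42.03 FPKM in Cre and 28.6, 29.9 and 26.6 FPKM in ctrl (0.58, SE 0.07, adjusted p = 4e-05). Among the lower genes, Hoxb13 (-1.23, SE 0.10, adjusted p = 2.09e-06), Hoxa4 (-1.14, SE 0.10, adjusted p = 1.96e-06) and Hoxa9 (-0.88, SE 0.07, adjusted p = 1.87e-06) led. None of the groups of these 7 genes overlapped, which the naming rule required of all but Hoxc6. Over all genes 39.5% were higher and 24.5% lower in Cre without overlap. Hoxc10 did not differ by call, at 31.3, 33.2 and 33.9 FPKM in Cre and 31.5, 32.6 and 34.04 FPKM in ctrl (log2 difference 0.00, 95% interval -0.12 to 0.13).

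With full-length NFIA, 18 of 26 were called against Cre, 6 higher and 12 lower, against 63.0% of all genes (27.0% higher and 35.9% lower). The 12 that were lower were Hoxb2, Hoxb3, Hoxb5, Hoxb9 and all Hoxc genes but Hoxc8. Hoxc13 was 8.05, 7.65 and 5.93 FPKM against 18.9, 21.2 and 20.02 in Cre (log2 difference -1.37, SE 0.12, adjusted p = 1.03e-06), with 16.2, 18.6 and 18.7 in Cre + NFIA Δpro#3 and 11.4, 8.42 and 10.2 in ctrl. Hoxc4 was 1.13, 0.971 and 1.21 FPKM against 2.56, 4.19 and 4.34 (-1.14, SE 0.14, adjusted p = 1.53e-05), and Hoxb9 was lower too (-1.09, SE 0.08, adjusted p = 2.67e-07). Even Hoxc10, with 26.3, 22.6 and 25.02 FPKM, was lower than in Cre (-0.40, SE 0.07, adjusted p = 0.000191). Among the 6 that were higher were Hoxb13 (4.60, SE 0.10, adjusted p = 1.14e-10), Hoxa4 (1.42, SE 0.10, adjusted p = 1.58e-07), Hoxa9 (0.68, SE 0.07, adjusted p = 6.8e-06), Hoxb8 (0.37, SE 0.08, adjusted p = 0.00119) and Hoxc8 (0.16, SE 0.07, adjusted p = 0.0454). Cre against ctrl and Cre + NFIA against Cre share the 3 Cre libraries, so opposite signs of these values for a gene are not independent observations.

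**Figure D3:**
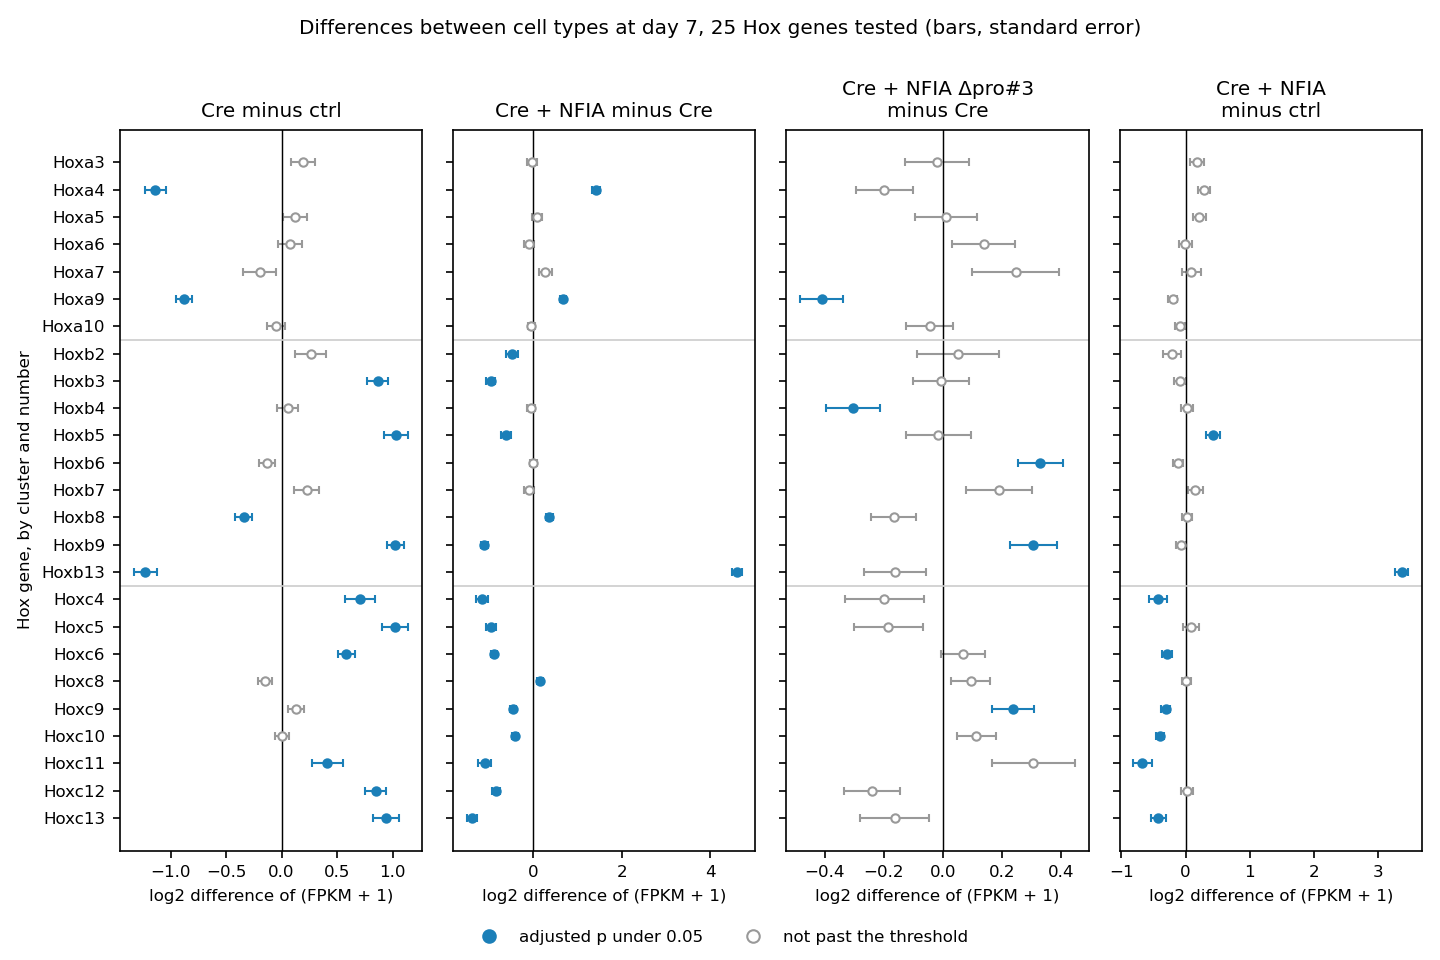
Log2 differences of FPKM + 1 between cell types at day 7 for 25 of the Hox genes tested, by cluster and number, with standard error bars and a horizontal scale of its own in each panel. Filled points passed an adjusted p under 0.05, 13 in Cre minus ctrl, 17 in Cre + NFIA minus Cre, 5 in Cre + NFIA Δpro#3 minus Cre and 8 in Cre + NFIA minus ctrl, and Hoxb13 lies far to the right in both panels that compare Cre + NFIA with cells without added protein.

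Compared directly with ctrl at day 7, Cre + NFIA cells differed in 8 of 26 Hox genes, 2 higher and 6 lower, against 18.0% of all genes (8.81% higher and 9.15% lower). This comparison was added after the values were seen. The 6 that were lower were Hoxc genes, led by Hoxc11 (-0.67, SE 0.14, adjusted p = 0.0071), Hoxc4 (-0.43, SE 0.14, adjusted p = 0.0467) and Hoxc13 (-0.43, SE 0.12, adjusted p = 0.0259), with Hoxc10 (-0.40, SE 0.07, adjusted p = 0.00162), Hoxc9 (-0.31, SE 0.07, adjusted p = 0.0112) and Hoxc6 (-0.29, SE 0.07, adjusted p = 0.0191) behind them. The calls of Hoxc4 and Hoxc13 were lost in 10 and 5 of 14 alternatives. Hoxb5 was higher at 2.47, 2.24 and 2.99 FPKM against 1.55, 1.86 and 1.57 (0.42, SE 0.11, adjusted p = 0.0194), a call lost in 3 of 14. Without ctrl replicate 1 the count of called Hox genes was 4 and without Cre + NFIA replicate 3 it was 5.

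The other gene that was higher was Hoxb13, and it stood alone in size. Hoxb13 is the terminal gene of the Hoxb cluster and is known from the tail bud, the prostate and the distal gut. At day 0 it was 0.324, 0.528 and 0.558 FPKM in ctrl, 0.791, 0.472 and 1.28 in Cre, 0.343, 1.24 and 0.886 in Cre + NFIA and 0.293, 0.535 and 0.572 in Cre + NFIA Δpro#3. At day 7 it was 2.02, 2.58 and 1.60 FPKM in ctrl, 0.244, 0.319 and 0.331 in Cre, 30.2, 31.0 and 30.2 in Cre + NFIA and 0.125, 0.181 and 0.173 in Cre + NFIA Δpro#3. The 3 Cre + NFIA libraries of day 7 were far above every other library, ctrl of day 7 was next and clear of the remaining groups, and Cre and Cre + NFIA Δpro#3 of day 7 held 2 to 5 reads per library. Hoxb13 reached 1 FPKM in 8 libraries, 6 of them those of ctrl and Cre + NFIA at day 7, and passed the filter on low values through these.

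The log2 difference of Hoxb13 at day 7 was 4.60 (SE 0.10, adjusted p = 1.14e-10) in Cre + NFIA against Cre and 3.37 (SE 0.10, adjusted p = 4.09e-09) against ctrl. By absolute size these ranked 7 and 2 among the 12640 genes tested. In Cre + NFIA Δpro#3 against Cre + NFIA the difference was -4.76 (SE 0.10, adjusted p = 8.33e-11), rank 15. In reads, the 3 Cre + NFIA libraries of day 7 held 1689 against 13 in Cre, a ratio of 103 after scaling to library totals (exact 95% interval 60.2 to 194, counting error only), 8 in Cre + NFIA Δpro#3 (ratio 190, interval 96.2 to 441) and 102 in ctrl (ratio 15.1, interval 12.3 to 18.6). With time Hoxb13 rose in ctrl (1.05, SE 0.16, adjusted p = 6.78e-06) and Cre + NFIA (4.14, SE 0.16, adjusted p = 4.62e-15), fell in Cre (-0.49, SE 0.16, adjusted p = 0.0162) and was -0.33 (SE 0.16, adjusted p = 0.109) in Cre + NFIA Δpro#3. These log2 values depend on the added 1 FPKM: with 0.1 or 5 in its place, and over the other alternatives, Cre + NFIA against Cre ran from 2.74 to 6.54.

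The summed Hoxb level at day 7 was 73.6 ± 1.38 FPKM in Cre + NFIA (SD, n = 3) and 45.9 ± 2.38 in ctrl. Without Hoxb13 it was 43.1 ± 0.972 FPKM in Cre + NFIA and 43.8 ± 2.01 in ctrl, against 59.7 ± 2.73 in Cre and 67.9 ± 1.42 in Cre + NFIA Δpro#3, so the other Hoxb genes together were not raised with Hoxb13. On the chromosome Hoxb13 lies apart from the other Hoxb genes, with Ttll6 on the outer side and Gm53 and Mir196a-1 between it and Hoxb9. Ttll6, a tubulin ligase gene, never had more than 13 reads and had 0 in the 3 Cre + NFIA libraries of day 7. Gm53, named here after its values were seen, was 17.5 ± 2.73 FPKM in Cre + NFIA and 16.6 ± 2.42 in ctrl at day 7, against 44.6 ± 0.641 in Cre and 47.0 ± 1.14 in Cre + NFIA Δpro#3. Gm53 was thus lower in the same pair of groups as Hoxb9, which includes the group where Hoxb13 was highest.

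**Figure D4:**
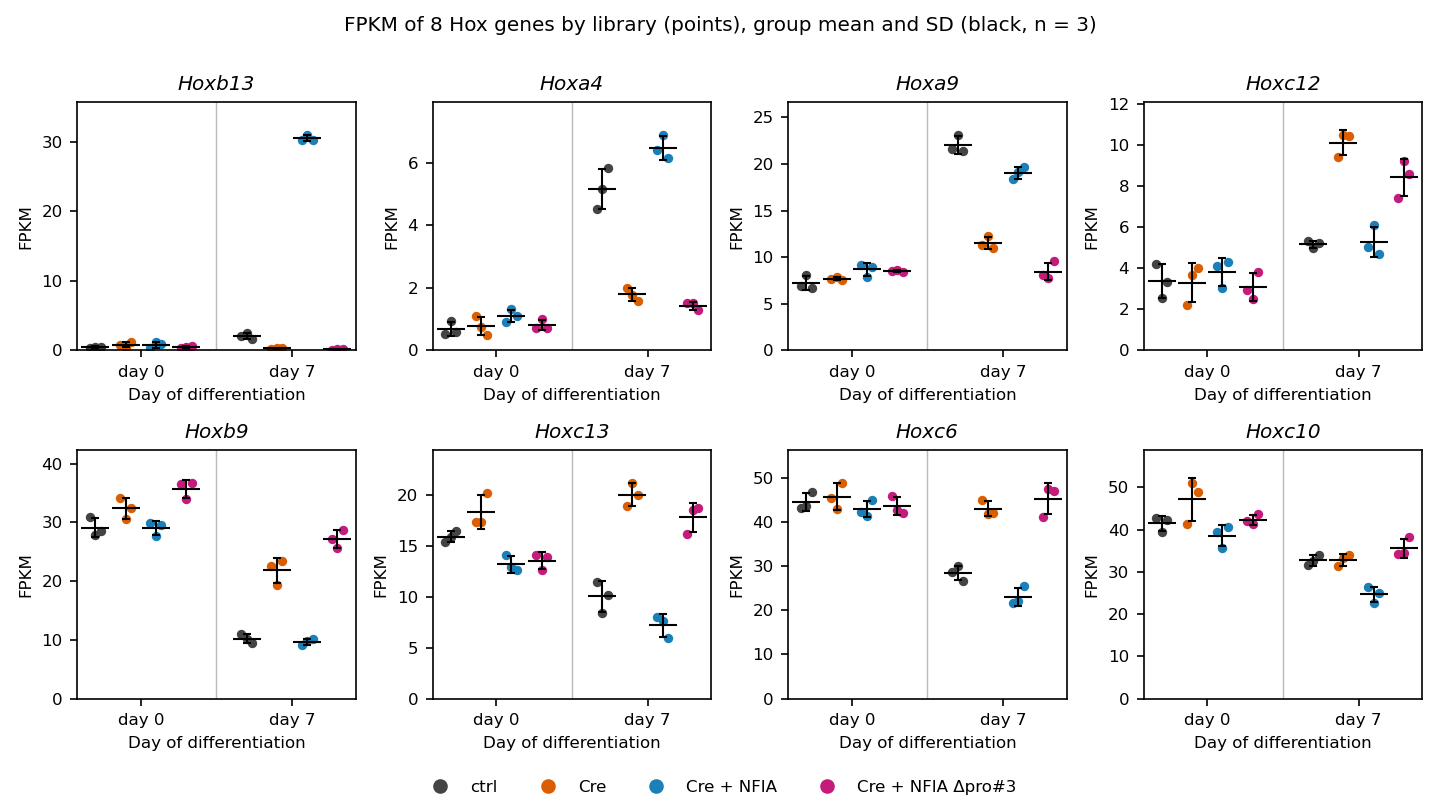
FPKM of 8 Hox genes in each library at day 0 and day 7 (colored points by cell type, with the group mean and SD of 3 libraries in black). Hoxb13, Hoxa4 and Hoxa9 stand highest in ctrl and Cre + NFIA cells of day 7, whereas Hoxc12, Hoxb9, Hoxc13 and Hoxc6 stand highest there in Cre and Cre + NFIA Δpro#3 cells.

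The sequence just before the annotated start of these genes is shown for Hoxb13, Hoxa4 and Hoxa9, because all of them were higher in ctrl and Cre + NFIA at day 7. Each is the 250 bases before the GENCODE vM1 gene start on mm9, written 5′ to 3′ on the strand of the gene. Capitals mark the core motif of the nuclear factor I family, TTGGC, or GCCAA where it lies on the other strand.
Hoxb13 (chr11:96055380-96055629, plus strand): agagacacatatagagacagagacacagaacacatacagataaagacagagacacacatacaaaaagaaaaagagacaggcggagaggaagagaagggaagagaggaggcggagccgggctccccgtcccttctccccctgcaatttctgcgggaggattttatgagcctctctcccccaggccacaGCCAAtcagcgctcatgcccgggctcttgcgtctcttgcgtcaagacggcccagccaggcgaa
Hoxa4 (chr6:52141753-52142002, minus strand): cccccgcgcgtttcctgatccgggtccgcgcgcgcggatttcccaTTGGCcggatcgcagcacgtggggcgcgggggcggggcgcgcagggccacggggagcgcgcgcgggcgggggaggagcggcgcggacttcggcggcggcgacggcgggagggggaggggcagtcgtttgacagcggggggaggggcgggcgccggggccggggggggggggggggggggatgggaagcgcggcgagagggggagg
Hoxa9 (chr6:52181089-52181338, minus strand): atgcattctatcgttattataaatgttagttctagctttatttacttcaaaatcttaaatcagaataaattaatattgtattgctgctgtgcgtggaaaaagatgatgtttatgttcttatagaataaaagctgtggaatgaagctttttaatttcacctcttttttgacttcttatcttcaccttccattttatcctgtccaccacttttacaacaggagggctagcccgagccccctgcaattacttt
The windows of Hoxb13 and Hoxa4 each hold 1 core motif, starting at -63 and -205 from the gene start, and that of Hoxa9 holds none. In the annotation Hoxa3 lies on the same strand from 52113358 to 52163338, so the Hoxa4 window falls inside Hoxa3. Hoxa10 lies on that strand from 52181196 to 52190853, so part of the Hoxa9 window falls inside Hoxa10. The lack of a motif there is thus not a result about sequence of Hoxa9 alone. The core motif was in 48.7% of the 39 Hox windows and in 41.9% of the windows of 22375 protein-coding genes. The full palindrome, TTGGC and GCCAA with 5 bases between them, was in 0 of the 39 Hox windows and in 0.03% of all. The windows of Hoxb13 and Hoxa4 differ in base composition, with 55.2% and 82% G and C. The windows of genes that were lower with NFIA are not shown, so no contrast between higher and lower genes is drawn from the motif. A match is a run of letters and not a bound site, and binding was not measured in these libraries.

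With the shortened protein, Hoxa9 and a few Hoxb and Hoxc genes differed from Cre at day 7. In Cre + NFIA Δpro#3 against Cre, 5 of 26 were called, 3 higher and 2 lower, against 17.7% of all genes (7.70% higher and 10.0% lower). Hoxb6 (0.33, SE 0.08, adjusted p = 0.0114), Hoxb9 (0.31, SE 0.08, adjusted p = 0.0191) and Hoxc9 (0.24, SE 0.07, adjusted p = 0.0412) were higher, and Hoxa9 (-0.41, SE 0.07, adjusted p = 0.00281) and Hoxb4 (-0.30, SE 0.09, adjusted p = 0.0429) were lower. Hoxb6, a gene of the thoracic level, was 14.6, 15.3 and 16.7 FPKM with the shortened protein, 11.2, 12.4 and 12.8 in Cre, 11.7, 13.2 and 11.8 in Cre + NFIA and 14.5, 13.1 and 12.6 in ctrl. Quantile normalization gave 3 higher and 1 lower. For Hoxa4 the difference was -0.20 (approximate 95% interval -0.39 to -0.01), for Hoxb13 -0.16 (-0.37 to 0.04), for Hoxc13 -0.16 (-0.39 to 0.07) and for Hoxc6 0.07 (-0.08 to 0.22). None of these was called. The intervals come from the SE and a normal distribution, so they are narrower than the t distribution behind the p-values would give. They are also not adjusted for the number of genes. Only the call of Hoxa9 was kept in every alternative.

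Set against each other at day 7, the shortened and the full-length protein differed in 18 of 26 Hox genes, 13 higher and 5 lower with the shortened one, against 69.2% of all genes (40.4% higher and 28.9% lower). Hoxb9 (1.40, SE 0.08, adjusted p = 2.31e-08), Hoxc11 (1.39, SE 0.14, adjusted p = 2.68e-06) and Hoxc13 (1.20, SE 0.12, adjusted p = 1.78e-06) were the largest of those that were higher, and Hoxb13, Hoxa4 (-1.62, SE 0.10, adjusted p = 3.12e-08) and Hoxa9 (-1.09, SE 0.07, adjusted p = 8.3e-08) of those that were lower. Hoxc6 was 41.2, 47.4 and 46.99 FPKM with the shortened and 21.6, 22.2 and 25.4 FPKM with the full-length protein (0.94, SE 0.07, adjusted p = 3.12e-07). The gene-level value of Nfia, which includes the transgene, was higher in the shortened-protein cells by 0.18 at day 7 (adjusted p = 0.0439), with overlap of the libraries. At day 0 it was lower in these cells (-0.25, adjusted p = 0.0487), without overlap.

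Whether the differences between cell types themselves changed from day 0 to day 7 was tested with an interaction term. For Cre against ctrl 12 of 26 Hox genes were called (8 higher and 4 lower), against 49.2% of all genes (29.7% higher and 19.5% lower), and quantile normalization gave 7 higher and 6 lower. For Cre + NFIA, set against Cre, 14 were called (4 higher and 10 lower), against 48.9% of all genes (18.8% higher and 30.1% lower). For Cre + NFIA Δpro#3 against Cre 1 was called, Hoxa9, against 18.2% of all genes (7.79% higher and 10.4% lower), and quantile normalization gave 1 higher and 1 lower. Size factors moved the median interaction of all genes from 0.10 to -0.01 in the first of these and from -0.09 to 0.02 in the second.

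In some groups of paralogs with the same number the members moved in different directions, and in others they fell together. In ctrl cells from day 0 to day 7, Hoxa9 rose by 1.49 while Hoxb9 and Hoxc9 fell (-1.43 and -0.30). In paralog group 4, Hoxa4 rose by 1.87, Hoxc4 fell (-0.66) and Hoxb4 was 0.04 (adjusted p = 0.79). In group 13, Hoxb13 rose by 1.05 and Hoxc13 fell (-0.63), with Hoxa13 and Hoxd13 at or near 0. In group 8, Hoxb8 rose (0.67, SE 0.14, adjusted p = 0.000183) and Hoxc8 was 0.10 (adjusted p = 0.165). In group 5 all members fell, Hoxa5 with a log2 difference of -0.27, Hoxb5 of -0.90 and Hoxc5 of -1.27. In group 6, Hoxa6 (-0.68) and Hoxc6 (-0.63) fell and Hoxb6 was -0.03 (adjusted p = 0.769). Of the Hoxa genes called in ctrl, Hoxa4 and Hoxa9 rose and Hoxa5 and Hoxa6 fell, so that genes that rose and genes that fell lay side by side in the cluster.

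At day 7 the 12 libraries split in many Hox genes into ctrl and Cre + NFIA on one side and Cre and Cre + NFIA Δpro#3 on the other, a grouping chosen after the values were seen. In 4 genes (15.4% of the 26) all 6 libraries of ctrl and Cre + NFIA were above the other 6 against 19.2% of all genes tested, namely Hoxa4, Hoxa9, Hoxb8 and Hoxb13. In 11 genes (42.3%) all 6 were below, against 30.3% of all genes, namely Hoxb2, Hoxb3, Hoxb5, Hoxb9, Hoxc4, Hoxc5, Hoxc6, Hoxc9, Hoxc11, Hoxc12 and Hoxc13. At day 0 the same split held in 1 gene, Hoxb2, which was lower (1.04% of all genes), and in none that was higher (1.41%). The 6 adipocyte markers moved with the same groups at day 7: their summed FPKM was 21760 to 25150 in ctrl and 20470 to 20710 in Cre + NFIA, against 4346 to 9319 in Cre and 822 to 2103 in Cre + NFIA Δpro#3. The 8 precursor markers summed to 502 to 552 in ctrl and 529 to 598 in Cre + NFIA, against 1111 to 1248 in Cre and 1260 to 1517 in Cre + NFIA Δpro#3. Hoxb13 was 14.7 times higher in mean FPKM in Cre + NFIA than in ctrl. The part of the extent of differentiation in the Hox differences, that of Hoxb13 among them, was not tested.

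The TALE cofactors, the partners of Hox proteins on DNA, were all 9 expressed and tested. At day 7, 7 were higher and 1 was lower in Cre against ctrl, and with NFIA added 1 was higher and 6 were lower than in Cre, against 36.1% higher and 22.7% lower and 27.0% higher and 35.9% lower over all genes. The median log2 difference was 0.59 and -0.68, against 0.09 and -0.06 over all genes. In Cre + NFIA Δpro#3 against Cre limma called 0 of the 9 (2 at an unadjusted p under 0.05). Meis3 was 4.67 ± 1.24 FPKM in ctrl, 12.2 ± 0.657 in Cre, 4.37 ± 0.746 in Cre + NFIA and 13.3 ± 1.41 in Cre + NFIA Δpro#3 at day 7 (-1.31, SE 0.14, adjusted p = 8.09e-06 for Cre + NFIA against Cre). Pbx3 was lower with NFIA (-0.94, SE 0.13, adjusted p = 5.06e-05), and Pbx2, the most abundant cofactor over all libraries, was not called (-0.13, adjusted p = 0.0907).

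Other homeobox and T-box genes of limb and trunk position were, like most Hoxc genes, mostly lower with NFIA. Of 37 such genes, 18 were tested, and at day 7 14 were higher and 1 was lower in Cre against ctrl, against 36.1% higher and 22.7% lower over all genes. In Cre + NFIA against Cre 1 was higher and 17 were lower, against 27.0% and 35.9% over all genes. The median log2 difference was 0.60 and -0.76, against 0.09 and -0.06 over all genes. Tbx15, a T-box gene of the trunk known from subcutaneous fat, was 28.5 ± 1.89 FPKM in ctrl, 44.2 ± 1.27 in Cre, 20.6 ± 0.424 in Cre + NFIA and 45.99 ± 1.83 in Cre + NFIA Δpro#3 (-1.06, SE 0.05, adjusted p = 2.55e-08 for Cre + NFIA against Cre). Prrx1, a mesenchymal gene of the limb bud, was lower with NFIA (-0.81, SE 0.10, adjusted p = 2.5e-05), and so were its relative Prrx2 (-1.40, SE 0.08, adjusted p = 5.88e-08) and the limb gene Shox2 (-0.60, SE 0.08, adjusted p = 3.27e-05). The hindlimb genes Pitx1 and Tbx4 were low: Pitx1 was highest in ctrl at day 7, at 1.39 ± 0.128 FPKM, and Tbx4 had at most 2 reads in a library. The forelimb gene Tbx5 had at most 15 reads in a library.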

How the data were processed

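RNA-seq libraries of ingSVF cells were analysed, 3 for each of 4 cell types at day 0 and day 7, 24 in all. Per the study's methods and the submitters' processing notes, the authors made stranded libraries, aligned reads with STAR 2.5.3a to mm9, kept unique alignments and counted them per gene with strand taken into account. The annotation they counted on was not given in the sources used here. The authors deposited FPKM values, which scale counts by gene length and by the library total. In every library 100% of values were whole multiples of 1 read, with a tolerance of 0.05 reads, so reads could be recovered and depth is known (7732829 to 14622189 reads). Reads that overlap several genes are not counted by this method, so shared exons lower the values of both genes. Intervals and limits cover counting error only.

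FPKM values were tested on log2(FPKM + 1) with limma 3.58.1 (R 4.3.3, trend) over the 12640 genes at 1 FPKM or more in at least 3 libraries, with Benjamini-Hochberg adjustment over all of them and a call at an adjusted p under 0.05. All adjusted p-values come from these fits, and a fold change on this scale understates that of low genes. Fits between cell types took the 12 libraries of 1 day, and fits over time and of interactions took all 24. The scripts were tested on simulated data. With 200 genes changed 6-fold, Cre + NFIA against Cre at day 7 gave 200 true and 31 false calls. Day 7 against day 0 in ctrl gave 200 and 51, and the interaction of Cre + NFIA with Cre 199 and 76. With 0 genes changed, false calls were 0. With 200 genes changed 2-fold, true and false calls were 188 and 14, 190 and 16, and 158 and 8, in the same order. With changed genes, false calls thus made up more than the threshold of 0.05 allows, except in the interaction at 2-fold. In most comparisons of the data far more genes were called than were changed here, so these rates need not carry over. Tables were handled with Python 3.11.15, pandas 2.3.3 and numpy 2.4.6. Date-like symbols stood in 26 rows and repeated symbols in 2, none of them a Hox gene. Some values and sequences are not reported here, so the figures plot 38 Hox genes, 25 of them tested.

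The Hox genes and the other gene lists were chosen with earlier results of these data known. Values are given in full for the 3 genes with the highest mean in each cluster with a mean of at least 1 FPKM, and for up to 3 higher and 3 lower called genes per comparison with the largest log2 change whose libraries did not overlap. Of the other lists, values are given for up to 4 genes with the highest mean. Gene positions and the bases before gene starts come from GENCODE vM1 and NCBIM37 (mm9). Alternatives were other pseudocounts, filters and normalizations, a count-based model of the recovered reads (limma voom), a replicate block, only the groups compared, a 3-fold rule, and each library left out.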

Additional observations from a re-analysis of the deposited data

Results flagged for a closer look

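In 13 cases among the Hox genes named for the interaction tests, a difference between cell types itself differed between day 0 and day 7 by the limma test of that difference. Only called genes with the largest changes were named, up to 3 in each direction, so this count follows from the naming rule. Of the 26 genes tested, 12, 14 and 1 were called in the interactions in the order below, against 49.2%, 48.9% and 18.2% of all genes. For Cre minus ctrl, the log2 difference at day 7 minus that at day 0 was 0.95 for Hoxb5, 0.88 for Hoxc12 and 0.87 for Hoxb9, and -1.54 for Hoxb13, -1.21 for Hoxa4 and -0.96 for Hoxa9. For Cre + NFIA minus Cre it was 4.63 for Hoxb13, 1.17 for Hoxa4 and 0.52 for Hoxa9, and -1.07 for Hoxc11, -1.01 for Hoxc12 and -0.94 for Hoxb9. For Cre + NFIA Δpro#3 minus Cre it was -0.54 for Hoxa9. Both of the first sets rest on the same Cre libraries, so their opposite signs are not independent. All 13 kept their sign and their side of the threshold in every alternative run at the same threshold.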

How the results depend on the processing

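The 79 gene changes named by rule were refitted in 1184 alternatives; 1112 kept direction and side of the threshold, 72 kept the direction but missed the threshold and 0 reversed. The lost calls belonged to 13 changes: Hoxb2 in Cre against ctrl, Hoxb7 in Cre + NFIA against Cre and Hoxa7, Hoxb2 and Hoxc13 in Cre + NFIA against ctrl at day 0; Hoxb4, Hoxb6, Hoxb9 and Hoxc9 in Cre + NFIA Δpro#3 against Cre and Hoxb5, Hoxc4 and Hoxc13 in Cre + NFIA against ctrl at day 7; and Hoxa4 with time in Cre + NFIA Δpro#3. Of 275 alternative counts of called Hox genes, 231 stayed within 1.5 times. A 3-fold rule, by its own construction, left 0 genes except 1 in Cre + NFIA against Cre, 2 in Cre + NFIA Δpro#3 against Cre + NFIA and 1 in Cre + NFIA against ctrl at day 7, 1 with time in ctrl, 2 with time in Cre + NFIA and 1 in the interaction of Cre + NFIA with Cre. The single call in Cre against ctrl at day 0 became 0 with no filter, with a replicate block and with only the groups compared; Cre + NFIA against ctrl at day 0 had 5 with only the groups compared; Cre + NFIA Δpro#3 against Cre at day 7 had 3 with no filter, 2 with only the groups compared and 3 with voom; its interaction had 2 with a pseudocount of 5 and 2 with quantile normalization. Apart from the 3-fold rule, whose cause is its construction, the cause was not tested. Without 1 library, day 0 counts ran from 0 to 2 (Cre against ctrl), 4 to 5 (Cre + NFIA against Cre), 2 to 4 (Cre + NFIA Δpro#3 against Cre), 1 to 1 (Cre + NFIA Δpro#3 against Cre + NFIA) and 6 to 9 (Cre + NFIA against ctrl). Day 7 counts ran, in that order, from 12 to 14, 17 to 18, 2 to 4, 17 to 19 and 4 to 7; time counts from 16 to 17 in ctrl, 11 to 16 in Cre, 20 to 21 in Cre + NFIA and 10 to 12 in Cre + NFIA Δpro#3; interactions from 10 to 13, 11 to 15 and 1 to 3. Libraries that moved a count by over 1.5 times were, at day 0, ctrl replicate 2 (0), Cre replicates 1 (2), 2 (0) and 3 (0) for Cre against ctrl, Cre replicate 3 (4) for Cre + NFIA against Cre, Cre replicate 1 (4) for Cre + NFIA Δpro#3 against Cre and Cre + NFIA replicate 1 (6) for Cre + NFIA against ctrl. At day 7 they were Cre replicates 2 (3) and 3 (3) and Cre + NFIA Δpro#3 replicates 1 (2), 2 (3) and 3 (2) for the shortened protein against Cre, and ctrl replicate 1 (4) and Cre + NFIA replicate 3 (5) for Cre + NFIA against ctrl. For the interaction of Cre + NFIA Δpro#3 with Cre they were Cre replicates 1 (3) and 2 (2) and Cre + NFIA Δpro#3 replicate 3 (2) of day 0 and Cre replicate 3 (2) of day 7. Same-numbered replicates deviated together with correlations from -0.274 to 0.201, and in 0 of 14 comparisons was every pair above 0.1, so the numbers were not taken as pairs; the replicate block moved no other count by over 1.5 times than that of Cre against ctrl at day 0 (0). Depth limits Hoxc11, Hoxa4 and the genes near 1 FPKM, and a gene at 0 allows 3 reads.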

Other observations

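Polycomb and trithorax genes, whose products keep Hox clusters silent or active, were called more often as higher than as lower in Cre against ctrl at day 7, and the other way round in Cre + NFIA against Cre. Of 25 tested, 14 were higher and 1 was lower in Cre against ctrl at day 7, and 2 were higher and 14 were lower in Cre + NFIA against Cre, with a median log2 difference of 0.21 and -0.19 against 0.09 and -0.06 over all genes. Over all genes 36.1% were higher and 22.7% lower in Cre against ctrl, 27.0% and 35.9% in Cre + NFIA against Cre, 7.70% and 10.0% in Cre + NFIA Δpro#3 against Cre, and 8.81% and 9.15% in Cre + NFIA against ctrl. Cre + NFIA Δpro#3 against Cre gave 1 higher and 3 lower among the 25, and Cre + NFIA against ctrl 1 higher and 2 lower. Ezh2, the methyltransferase of the Polycomb repressive complex that places the silencing mark on histone H3, was 28.96 ± 2.11 FPKM in ctrl, 25.4 ± 1.98 in Cre, 29.01 ± 2.63 in Cre + NFIA and 25.6 ± 1.82 in Cre + NFIA Δpro#3 at day 7 (0.19, SE 0.08, adjusted p = 0.0682 for Cre + NFIA against Cre). Cbx6 (-1.13, SE 0.06, adjusted p = 4.44e-08) and Phc2 (-0.53, SE 0.09, adjusted p = 0.000185), subunits of the other Polycomb complex, and Men1 (-0.31, SE 0.07, adjusted p = 0.00175), a partner of trithorax methyltransferases, are the other most abundant genes of the list.

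Of 9 regulators that act upstream of Hox clusters, 5 were tested, among them the retinoic acid receptors Rarg (-1.36, SE 0.10, adjusted p = 3.96e-07 for Cre + NFIA against Cre at day 7) and Rara (-0.47, SE 0.08, adjusted p = 0.00024), the insulator protein Ctcf (-0.05, SE 0.06, adjusted p = 0.515) and Yy1 (0.09, SE 0.08, adjusted p = 0.375). In that comparison 0 were higher and 3 were lower, and in Cre against ctrl 3 were higher and 0 were lower, against 35.9% lower and 36.1% higher over all genes, and 5 genes are too few to be told apart from those shares. Cre + NFIA Δpro#3 against Cre gave 1 higher, and Cre + NFIA against ctrl 2 lower.

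Genes that lie beside the Hox clusters were, where called, lower in Cre and higher with NFIA. Of 10 tested, 5 were lower and 0 higher in Cre against ctrl at day 7, against 22.7% lower and 36.1% higher over all genes. In Cre + NFIA against Cre 6 were higher and 0 lower, against 27.0% higher and 35.9% lower. Cre + NFIA Δpro#3 against Cre gave 2 lower and 0 higher, against 10.0% lower and 7.70% higher. Cre + NFIA against ctrl gave 3 higher and 0 lower, against 8.81% higher and 9.15% lower. Those with the highest level were Atp5g3 (1.07, SE 0.11, adjusted p = 3.85e-06 for Cre + NFIA against Cre), Hibadh, an enzyme of valine breakdown (1.01, SE 0.10, adjusted p = 2.75e-06), Mtx2 (0.71, SE 0.06, adjusted p = 1.06e-06) and Cbx5, a heterochromatin protein (0.15, SE 0.08, adjusted p = 0.123). Among 16 non-coding genes of the clusters found in the tables, 7 passed the filter, and 2 were higher and 2 lower in Cre + NFIA against Cre, 1 higher and 1 lower in Cre against ctrl, 1 lower in Cre + NFIA Δpro#3 against Cre and 2 lower in Cre + NFIA against ctrl, beside the same shares of all genes. Hotairm1, an antisense RNA of the Hoxa cluster, was 5.55 ± 3.06 FPKM in ctrl, 3.66 ± 1.78 in Cre, 9.63 ± 2.45 in Cre + NFIA and 3.19 ± 2.55 in Cre + NFIA Δpro#3 at day 7 (1.25, SE 0.46, adjusted p = 0.0326 for Cre + NFIA against Cre). Mir196a-1, the microRNA gene between Hoxb13 and Hoxb9, was -1.58 (SE 0.29, adjusted p = 0.000562), Mir196a-2 -0.32 (SE 0.37, adjusted p = 0.469) and Hoxb3os 0.64 (SE 0.25, adjusted p = 0.042) in the same comparison. MicroRNA genes are so short that few reads set their FPKM, and the mature microRNAs were not measured. Hotair, at the Hoxc cluster, was at most 0.758 FPKM and Hottip, at the Hoxa cluster, was listed at 0.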
